A study of Homo sapiens with 3 samples.

Results

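Of the 27274 genes named on the arrays, 10 were examined, namely SULF1 and SULF2, which trim sulfate from heparan sulfate, EXT1, EXT2, NDST1, HS2ST1 and HS6ST1, which build and sulfate the chain, and GPC3, SDC1 and SDC4, which carry it. The members were chosen by pathway with results of the same arrays known, since SULF2 was already recognised there as a gene raised by etoposide. Their signals on these 3 arrays are therefore given as a description, without a test. The cells were HepG2, a human hepatocellular carcinoma line that keeps wild-type p53 and many properties of hepatocytes. All were grown in the same medium, and total RNA was taken 30 h after the start of treatment from control cells, from cells given 10 μM etoposide (the low dose) and from cells given 100 μM etoposide (the high dose). The labels call the control untreated, while the study's own comparisons name the solvent DMSO as the reference, so whether the control received solvent is not settled here. Etoposide traps topoisomerase II on DNA and so causes double-strand breaks. The arrays were made to compare a dose chosen to bring on senescence with a dose chosen to bring on apoptosis. Each condition had 1 sample on 1 array, so the differences below have no replicate array and no p-values.

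Heparan sulfate is a linear sugar chain attached to core proteins at the cell surface and in the matrix. The chain is polymerized in the Golgi by the EXT1 and EXT2 copolymerase. It is then modified in order by N-deacetylation and N-sulfation, epimerization, 2-O-sulfation and 6-O-sulfation, and the sulfate pattern decides which growth factors and receptors the chain can hold. SULF1 and SULF2 are secreted enzymes that act after synthesis and remove 6-O-sulfates from the finished chain outside the cell, which changes signaling through FGF, Wnt and other ligands. In liver, the glypican GPC3 is a known marker of hepatocellular carcinoma, and the syndecan SDC1 takes part in the uptake of lipoprotein remnants by hepatocytes.

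Signals are Agilent processed intensities, set to a common 75th percentile of all probes, with the control array as the reference. Ratios are given as fold values or as log2 ratios with the spot-to-spot SD, which is the SD that repeated probes of similar brightness show within an array. It covers the array surface and not the culture, the RNA or the labeling. A gene was counted as changed when its ratio passed 2-fold. In RNA from a whole culture, fewer cells of a kind and less RNA per cell cannot be told apart. Across the whole arrays, 19836 to 20150 of 34127 probes were well above background and no spot was saturated. All 11 hepatocyte markers were well above background in every condition, with summed signals of 415161 in the control, 425244 with the low dose and 542634 with the high dose, of which AHSG alone gave 179192, 178304 and 234191. They went both ways, with 5 above and 6 below control at the low dose and 9 above and 2 below at the high dose. ALB was 1.67-fold and 1.43-fold lower than control, AFP was at 79159, 73023 and 74892, and FGA and TTR were 3.69-fold and 2.16-fold higher than control at the high dose. The p53 target CDKN1A, which encodes the p21 inhibitor of the cell cycle, went from 170 to 1349 and 1201, while MKI67, a marker of proliferating cells, was at 591, 648 and 127. Of 9 proliferation genes, 6 lay below control at the low dose, within 2-fold, and 9 were more than 2-fold lower at the high dose.

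**Figure D1:**
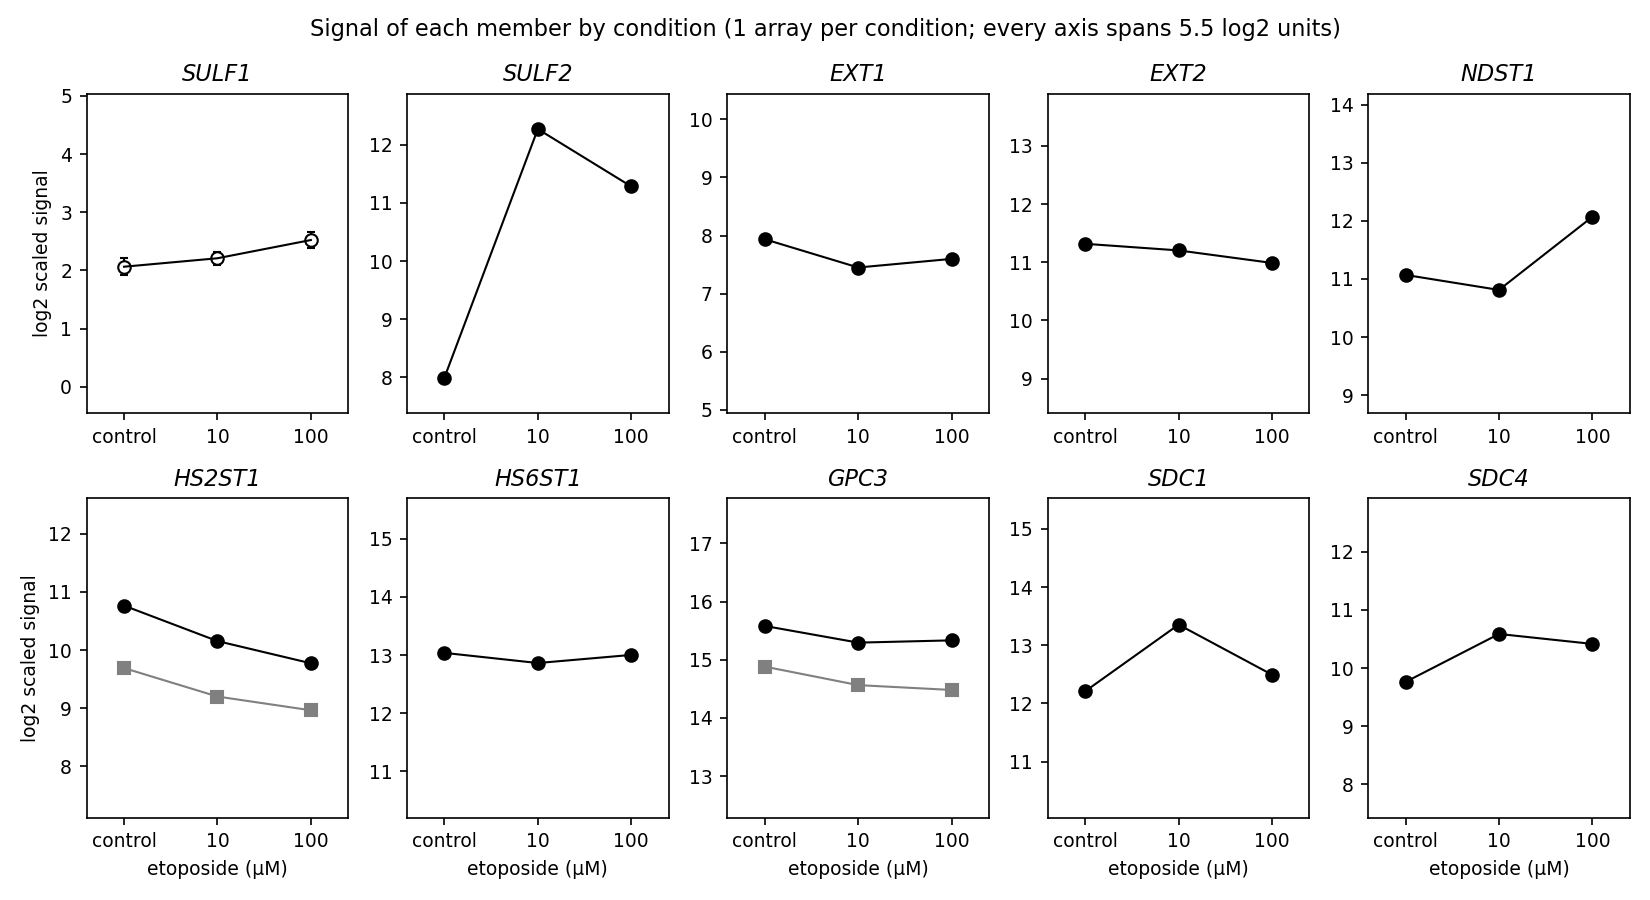
Log2 scaled signal (y axis, every panel spanning the same number of log2 units) of each member in control cells and at 10 and 100 μM etoposide (x axis), 1 array per condition, with bars for the spot-to-spot SD, squares for a second probe and open circles where the probe was not well above background. SULF2 shows the steepest rise of the signal, from 255 to 4944 and 2494, SDC1 peaks at the low dose and NDST1 at the high dose. SULF1 is not well above background on any array.

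The sulfatase SULF2 (NM_018837) showed the largest ratios among the members. Its probe lies on the reverse strand of hg18 at chr20:45719831-45719890. The scaled signal was 255 in the control, 4944 with the low dose and 2494 with the high dose. Both treated arrays thus lay far above the control array, and the low dose lay above the high dose. The low dose was 19.4-fold over control (log2 4.28, spot-to-spot SD 0.08) and the high dose was 9.78-fold over control (log2 3.29, spot-to-spot SD 0.08). Ranked over all genes with a ratio, these were the 6th highest of 16659 and the 12th highest of 16771. The 2 doses differed by 1.98-fold (log2 0.99, spot-to-spot SD 0.06), which is within the spot noise of 2-fold. Over 7 ways of scaling the arrays, the ratio to control ran from 19.1 to 20.2 at the low dose and from 8.0 to 10.2 at the high dose, and the ratio between doses ran from 1.89 to 2.46 and passed 2-fold under 3 of them. The study also measured SULF2 by qPCR and found it raised at both doses, by smaller ratios than on its arrays.

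The related sulfatase SULF1 (NM_015170), which has the same enzymatic activity, was not well above background in any condition. Its signals were 4.18, 4.62 and 5.74, while the lowest signal called well above background was 19.5, 21.7 and 25.7 on the same arrays. No ratio is given for it. Of the 2 extracellular sulfatases, SULF2 was therefore the only one with a measured signal in these cells.

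Promoter sequence is shown for SULF2, the member with the largest ratios, beside SDC1 and NDST1, the other members that reached about 2-fold over control. RefSeq lists several start sites for SULF2 and SDC1, and the arrays do not tell which was used. The SULF2 start with the most GC boxes and the downstream start of SDC1 were taken. Each line holds the 250 bases before the start, 5′ to 3′ on the strand of the gene, in the RefSeq GRCh38.p14 assembly, which is not the build of the probe positions. Capitals mark GC boxes (GGGCGG or its complement CCGCCC), the letters bound by Sp1-type factors.
SULF2 at chr20:47785482-47785731, reverse strand: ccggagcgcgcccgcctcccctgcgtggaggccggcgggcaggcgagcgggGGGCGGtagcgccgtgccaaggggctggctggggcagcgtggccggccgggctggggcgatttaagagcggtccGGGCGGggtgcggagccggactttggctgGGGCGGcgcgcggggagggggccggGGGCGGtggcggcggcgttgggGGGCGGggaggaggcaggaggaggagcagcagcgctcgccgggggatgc
SDC1 at chr2:20225131-20225380, reverse strand: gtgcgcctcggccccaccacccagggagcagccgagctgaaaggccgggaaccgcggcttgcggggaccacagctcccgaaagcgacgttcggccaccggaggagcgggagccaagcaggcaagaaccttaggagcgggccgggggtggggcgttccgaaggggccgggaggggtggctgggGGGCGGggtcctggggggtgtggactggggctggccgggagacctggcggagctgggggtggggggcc
NDST1 at chr5:150497529-150497778, forward strand: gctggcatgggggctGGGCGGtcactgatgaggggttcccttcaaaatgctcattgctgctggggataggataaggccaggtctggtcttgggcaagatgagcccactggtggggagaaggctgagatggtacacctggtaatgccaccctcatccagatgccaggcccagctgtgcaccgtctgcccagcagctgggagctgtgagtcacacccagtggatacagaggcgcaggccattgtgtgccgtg

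The SULF2 stretch has 81.2% G and C and holds 5 GC boxes, a number that follows from how the start was picked, and the other 3 SULF2 starts have 0, 0 and 1 at 56.8%, 56% and 56.8% G and C. The SDC1 and NDST1 stretches hold 1 each, at 75.2% and 60.4%. With 50 bases after the start added, 45% of all 35116 RefSeq promoter windows of that length hold a GC box on either strand. The same windows were searched on both strands for the p53 half-site consensus, and 6.63% of all windows held it. It was found in 0 of the 13 windows of HS2ST1, SDC1, HS6ST1, NDST1, EXT2, SDC4 and SULF2, which says only that these letters are not in these windows. Promoter windows of SULF1, EXT1 and GPC3 were not analysed here.

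Among the 5 chain-building enzymes of the set, NDST1 showed the largest difference between doses. NDST1 (NM_001543, hg18 chr5:149917907-149917966) makes the N-deacetylation and N-sulfation on which the later sulfations depend. Its signal was 2148 in the control, 1796 with the low dose and 4294 with the high dose. The high dose alone lay above control, and the low dose lay below it. The low dose was 1.20-fold lower than control (log2 -0.26, spot-to-spot SD 0.06) and the high dose was 2.0-fold higher (log2 1.0, spot-to-spot SD 0.07), which just missed the threshold and passed it under 3 of the 7 scalings. Between doses, NDST1 was 2.39-fold lower with the low dose (log2 -1.26), with a range of 1.93 to 2.51 over the scalings, 5 of which passed 2-fold. Its opposite directions at the 2 doses were kept under all 7 scalings, and the difference was not tested.

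HS2ST1, the 2-O-sulfotransferase that sulfates the uronic acid of the chain, was measured by 2 probes for different transcript variants. The probe of variant NM_012262 (hg18 chr1:87347957-87348016) gave 1740 in the control, 1140 with the low dose and 875 with the high dose. The signal thus went down with each dose. It was 1.53-fold lower than control at the low dose (log2 -0.61) and 1.99-fold lower at the high dose (log2 -0.99, spot-to-spot SD 0.07), and the latter ran from 1.91 to 2.43 over the scalings, past 2-fold under 3. The probe of variant NM_001134492 (hg18 chr1:87336631-87336690) gave 826, 589 and 500, in the same order, with log2 ratios of -0.49 and -0.73.

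The other 3 synthesis enzymes were within 1.5-fold of control at both doses, although EXT1 and EXT2 reached 1.54-fold lower at the high dose under the scaling that lowered them most. HS6ST1 (NM_004807, hg18 chr2:128739529-128739588), a 6-O-sulfotransferase that adds the sulfate SULF2 removes, gave 8403 in the control, 7446 with the low dose and 8201 with the high dose. Its log2 ratios were -0.17 and -0.04, and the latter was within the spot noise of 0 and changed sign among the scalings (0.799-fold to 1.02-fold). The copolymerase subunit EXT1 (NM_000127) gave 245, 175 and 194, with log2 ratios of -0.49 and -0.34. The second subunit EXT2 (NM_000401, hg18 chr11:44222863-44222922) gave 2551, 2358 and 2031, with log2 ratios of -0.11 and -0.33, the former within the spot noise of 0. Both subunits were lowest on a treated array, EXT1 at the low dose and EXT2 at the high dose. The difference between doses was -0.15 for EXT1 and 0.22 for EXT2 on the log2 scale, and that of EXT1 was within its spot noise and changed sign among the scalings.

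**Figure D2:**
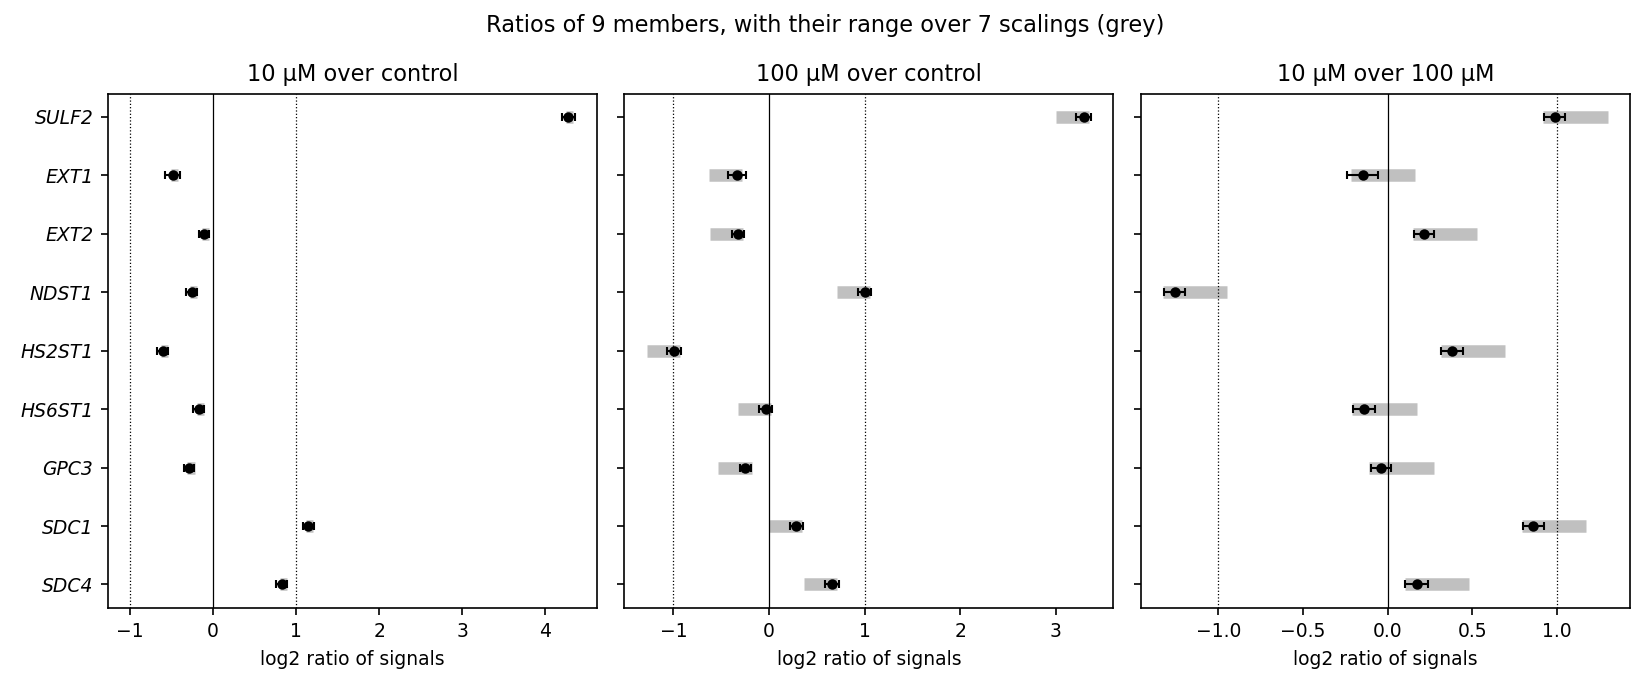
Log2 ratios (x axis) of the 9 members with a ratio (y axis) for low dose over control, high dose over control and low over high dose, as points with bars for the spot-to-spot SD; grey bands show the range over 7 scalings and dotted lines mark 2-fold. SULF2 lies far to the right in both comparisons with control, and the bands of NDST1, HS2ST1, SULF2 and SDC1 cross a dotted line in at least 1 panel.

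The syndecans, transmembrane core proteins that carry heparan sulfate at the cell surface, were both higher with the low dose than in the control. SDC1 (NM_001006946, hg18 chr2:20264816-20264875) gave 4731 in the control, 10473 with the low dose and 5765 with the high dose. The low dose stood above both other arrays. It was 2.21-fold over control (log2 1.15, spot-to-spot SD 0.06), with 2.18 to 2.31 over the scalings. The high dose was 1.22-fold over control, with 0.997 to 1.27 over the scalings, so its direction depended on the scaling. The low dose was 1.82-fold over the high dose, and this ratio passed 2-fold under 3 scalings. SDC4 (NM_002999, hg18 chr20:43387992-43388051), the syndecan of focal adhesions, gave 868, 1538 and 1366. Both treated arrays lay above control, by 1.77-fold (log2 0.82) and 1.57-fold (log2 0.65), and the doses were 1.13-fold apart. The probe of the SDC4 pseudogene SDC4P was not well above background on any array.

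The glypican GPC3, a core protein anchored to the membrane by a lipid, was measured by 2 probes on chromosome X of hg18. The probe at chrX:132497493-132497552 gave 49020 in the control, 40178 with the low dose and 41281 with the high dose. The probe at chrX:132558142-132558201 gave 30180, 24208 and 22851. By both probes the treated arrays lay below control, with log2 ratios between -0.40 and -0.25. The doses were within the spot noise of each other by the brighter probe (0.973-fold), and the sign of that ratio changed among the scalings.

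Over the members, 2 of the 9 with a ratio (SULF2 and SDC1) passed 2-fold upward in low-dose cells relative to control, where 3.39% of 16659 genes did, and 0 passed it downward, where 1.58% of genes did. At the high dose 1 of 9 (SULF2) was higher and 0 were lower, against 6.83% and 3.68% of 16771 genes. Between doses 0 of 9 were higher at the low dose and 1 (NDST1) was lower, against 3.66% and 3.96% of 16685 genes. The member nearest above the threshold at the low dose was SDC1 (2.21-fold) and the nearest below it was SDC4 (1.77-fold). The median log2 ratio of the members was -0.17 at the low dose, -0.04 at the high dose and 0.17 between doses, and that of all genes was -0.04, 0.10 and -0.11. Since SULF2 was known to be raised when the members were listed, these counts describe the list and nothing is read from them. The control array enters the first 2 comparisons, which are therefore not independent.

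**Figure D3:**
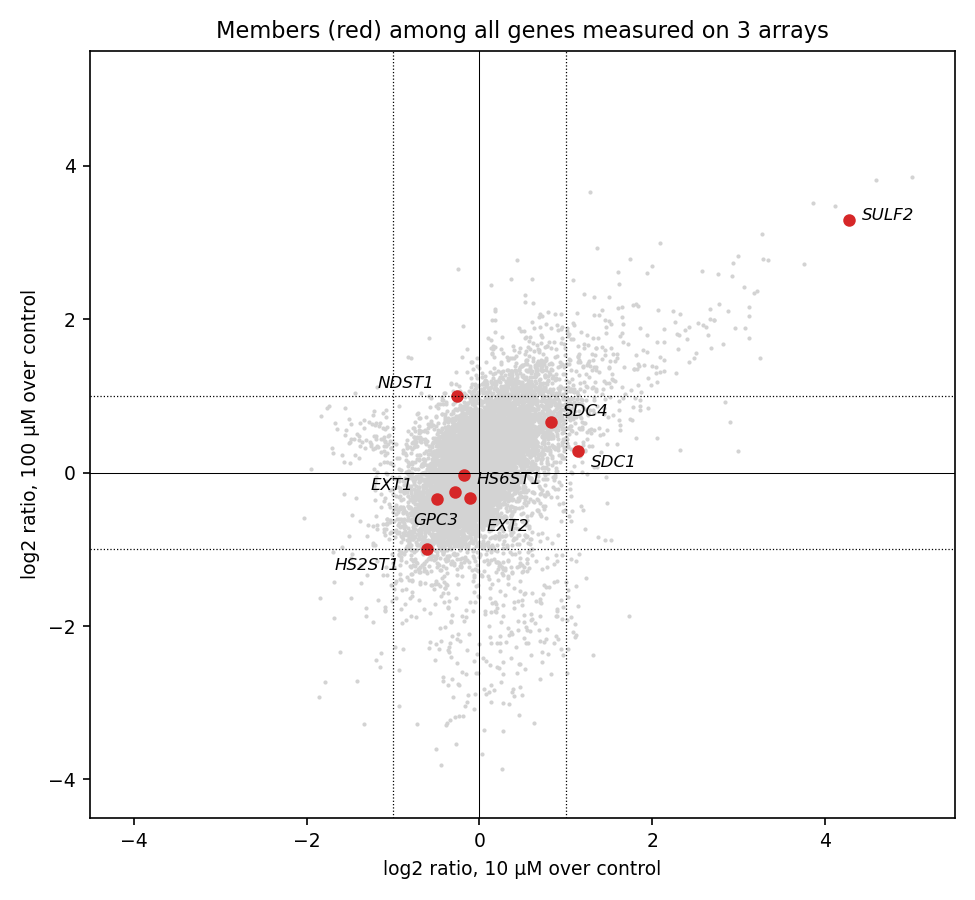
Log2 ratio at 10 μM over control (x axis) against 100 μM over control (y axis) for the genes measured on all 3 arrays (grey) and the 9 members with a ratio (red); dotted lines mark 2-fold. SULF2 lies at 4.28 and 3.29, among the highest points on both axes, while 7 members lie within 2-fold on both axes, of which NDST1 (1.0) and HS2ST1 (-0.99) sit at the lines.

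Genes whose ratios lay nearest to those of SULF2 were sought among the 12045 genes carrying an NM accession whose probe was well above background on all 3 arrays. The measure was the distance over the log2 ratios of both doses to control. The nearest were GPR172B, which encodes a riboflavin transporter (distance 0.03), the phosphodiesterase PDE4C (0.47), the sodium pump regulator FXYD2 (0.61), the D-amino acid oxidase DAO (0.76) and the nectin PVRL4 (0.92). GPR172B gave 22.0 in the control, 425 with the low dose and 211 with the high dose, that is 19.3-fold and 9.57-fold over control. PVRL4 gave 80.8, 2596 and 1169. The genes nearest to SDC1 were PTPRU, TMEM54 and APAF1, all within a distance of 0.08, and those nearest to NDST1 were KIAA1539, SCN1A and PRB4, within 0.054. The spot-to-spot SDs of the SDC1 and NDST1 ratios were of about this size, and with 3 arrays such likeness rests on 2 ratios per gene. The control signals of GPR172B (22.0), PDE4C (29.6), FXYD2 (30.0), SCN1A (30.4) and APAF1 (33.0) were dim. The lowest signal called well above background on that array was 19.5, so the ratios of these genes are less certain.

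The choice of members did not use the sequence under the probes. The polyadenylation signal AATAAA lay within 4 of the 12 member probes (33.3%), against 7.67% of all 34127 probes. The stretches around it are shown, with the signal in capitals, because it lies near the 3′ end of most mRNAs. A match of these letters is a description and not a mapped transcript end.
SULF2 (NM_018837): agtggtggtgtcAATAAAcgctctgtggcc
NDST1 (NM_001543): gaactaactgctAATAAAgtggggttctgt
HS6ST1 (NM_004807): gttagctgatgaAATAAAccctgac
HS2ST1 (NM_001134492): tatcaagtggaaAATAAAgatact
In this order, their low dose log2 ratios were 4.28, -0.26, -0.17 and -0.49.

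The other genes of heparan sulfate metabolism were followed in 6 lists with 56 genes, of which 40 had a ratio with the low dose and 39 with the high dose. With the low dose 1 passed 2-fold upward and 0 downward, and with the high dose the numbers were again 1 and 0. Over all genes the shares were 3.39% and 1.58% with the low dose and 6.83% and 3.68% with the high dose, and nothing particular to these lists is read from the counts. The gene was GPC1 (NM_002081) in both, a glypican found on many cell types. Its signal was 551 in the control, 2660 with the low dose and 1355 with the high dose. As for SULF2, the low dose was the highest array, at 4.83-fold over control (log2 2.27), and the high dose was 2.46-fold over control (log2 1.30). Between doses 0 were higher at the low dose and 2 were lower, namely GLCE and EXTL1, against 3.66% and 3.96% of all genes. The medians of the 56 genes were 0.06, 0.22 and -0.11 on the log2 scale.

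The other core proteins made the list with the highest medians, 0.48 at the low dose over 12 genes and 0.63 at the high dose over 11. Over all genes the medians were -0.04 and 0.10. The list medians fell on dim genes. At the low dose the median lay between SDC3, a bound with a spot-to-spot SD of 0.62, and GPC4, with 0.29. At the high dose it was that of GPC4, with a spot-to-spot SD of 0.30. GPC4 gave 28.8 in the control, where the lowest signal well above background was 19.5. The basement membrane proteoglycan AGRN gave 2270, 4522 and 4221, which is 1.99-fold and 1.86-fold over control, and the former passed 2-fold without scaling and with spike-in controls. Below control lay GPC6 (log2 -0.54 and -0.79) and SDC2 (-0.80 and -0.53). The list of linker synthesis enzymes, which attach the chain to its core protein, stayed between -0.26 and 0.46, with B3GAT3 (0.46 at the low dose) and B3GALT6 (0.42 at the high dose) at the top. In the list of precursor supply, which provides sugar nucleotides and the sulfate donor, ratios lay between -0.62 (SLC35D2 at the low dose) and 0.66 (SLC35B3 at the high dose).

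In chain modification only 3 of the 13 other genes had a ratio, and 10 were not well above background, among them HS6ST2, HS6ST3 and HS3ST1. GLCE, the epimerase that acts after NDST1, gave 77.0 in the control, 51.8 with the low dose and 139.9 with the high dose. Like NDST1 it was lowest at the low dose and highest at the high dose, with log2 ratios of -0.57 and 0.86. HS3ST3B1, a 3-O-sulfotransferase, was at -0.70 and -0.30. Of the other polymerization genes, EXTL1 was at -0.85 and 0.38 with signals of 45.3, 25.1 and 58.9 near the background, where the spot-to-spot SD was 0.32 between doses, and its ratio between doses (log2 -1.23) missed 2-fold under 3 of the 7 scalings. EXTL2 was at -0.48 and -0.37.

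Among 8 measured genes of chain degradation, most of them lysosomal, none passed 2-fold, and the highest were IDUA (0.85 at the high dose) and HGSNAT (0.64 and 0.81). Heparanase HPSE, which cuts the chain outside the cell, was not well above background. Of 13 other sulfatases and their activating factors, 9 had a ratio. ARSA, the lysosomal sulfatase of sulfatides, was 1.62-fold and 2.08-fold over control, and the latter fell short of 2-fold in unscaled (log2 0.81), median-scaled (0.77) and spike-in-scaled (0.88) signals. STS, the steroid sulfatase of the endoplasmic reticulum, was 2.21-fold lower at the low dose (log2 -1.14) and 1.22-fold lower at the high dose. Chondroitin and dermatan sulfate synthesis, which shares the linker with heparan sulfate, had 13 genes with a ratio, of which 0 passed 2-fold, with CHST15 (0.83 at the low dose) and CHPF2 (0.88 at the high dose) as the highest. Over all genes 3.39% passed 2-fold upward and 1.58% downward with the low dose, and 6.83% and 3.68% with the high dose. Nothing is read from the counts of these lists.

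**Figure D4:**
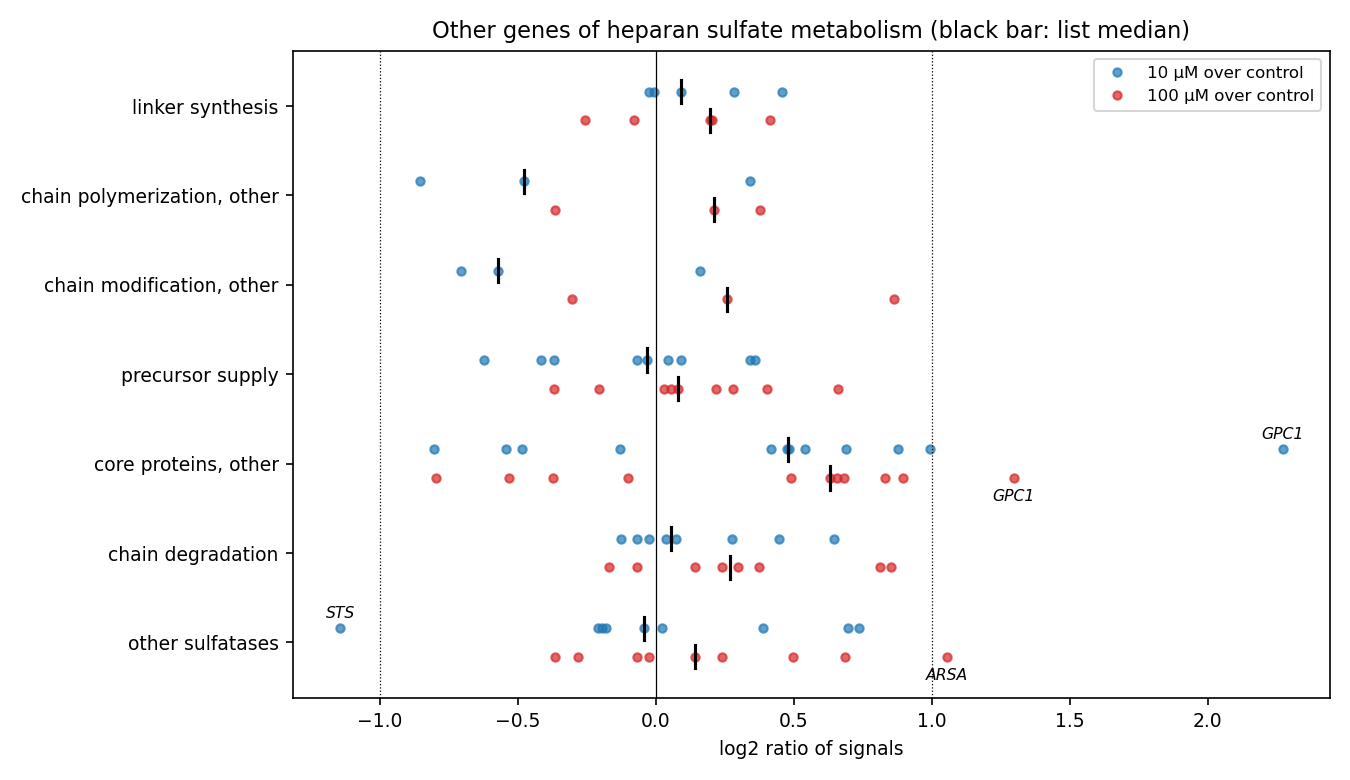
Log2 ratios (x axis) of the genes with a ratio in 7 lists of heparan sulfate metabolism and related sulfatases (y axis) at 10 μM (blue) and 100 μM (red) over control; black bars are list medians and dotted lines mark 2-fold. GPC1 stands apart at 2.27 and 1.30, STS lies at -1.14 at the low dose and ARSA at 1.06 at the high dose; SDC3 at the low dose is a bound.

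Ligands and receptors that bind heparan sulfate were measured for 18 of 28 genes. With the low dose 1 passed 2-fold upward and 1 downward, and with the high dose 1 passed upward and 0 downward, beside all-gene shares of 3.39% and 1.58% with the low dose and 6.83% and 3.68% with the high dose. HBEGF, an EGF receptor ligand, was not well above background in the control, and was at least 2.06-fold higher with the low dose (short of 2-fold under quantile normalization) and at least 2.56-fold higher with the high dose. The hedgehog ligand IHH gave 2832, 1157 and 1769, log2 ratios of -1.29 and -0.68 to control. KLB, a coreceptor for FGF ligands of the liver, gave 935, 585 and 1228, and between doses was 2.10-fold lower with the low dose, short of 2-fold under 3 of the 7 scalings.

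Markers of other cell types moved with the doses beside these results. Of 8 fibroblast and stellate cell markers, 6 (COL1A1, COL1A2, COL3A1, DCN, LUM and THY1) were not well above background in any condition. The summed signal was 2032 in the control, 8486 with the low dose and 7052 with the high dose. It was mostly that of ACTA2 (1908, 8386 and 6968). PDGFRB went the other way, at 95.6, 64.2 and 26.7, the last not well above background. The 5 immune markers on the arrays were well above background in every condition by their brightest probe. For PTPRC this held for 1 of 5 probes, and the other 4 were not well above background on any array. The sums over the immune markers were 1793, 2193 and 3864. Of these sums CD14 gave 521, 1135 and 2196. The markers went both ways, with 2 above and 3 below control at the low dose and 4 above and 1 below at the high dose. Of 5 endothelial markers, KDR and TEK were not well above background, and the sums were 539, 358 and 433. All 3 arrays held RNA of the HepG2 line alone, so these signals are not a count of other cells. Any link of theirs with the results for SULF2, SDC1 and NDST1 was not tested.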

How the data were processed

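Total RNA of HepG2 cells, 1 sample per condition, was labeled with Cy3 and hybridized to Agilent 4 × 44K arrays, 3 arrays on 1 slide. The authors' deposited files hold spot intensity values from Agilent Feature Extraction 10.7.3.1, background-subtracted (gProcessedSignal) and not scaled between arrays. The deposited value table was equal to these intensities at all 44495 spots of each array and was not used further.

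The members and gene lists were chosen with earlier results of these data known. Non-outlier spots of a probe were averaged on the log2 scale, and the array's 75th percentile over 34127 probes (514, 536 and 432) was subtracted. The brightest probe stood for a gene. A dim value was raised to the floor of its array, the lowest signal called well above background there, and its ratio is a bound, and a gene dim on both arrays got no ratio. The spot-to-spot SD came from the 50 repeated probes nearest in signal. The number of arrays limits the precision. Besides the members, the genes past 2-fold in each list, at most 4, or else the 2 with the largest ratio, were eligible to be named, with 5 fixed markers and the nearest genes in pattern. GPC4, GPC6, SDC2, SDC3, HPSE, HS6ST2, HS6ST3, HS3ST1 and the cell type markers at background were named after their values were seen. AHSG and SDC4P were also named outside this rule. Python 3.11.15, pandas 2.3.3, numpy 2.4.6, R 4.3.3 and limma 3.58.1 were used, and the steps were tested on simulated data. Alternatives covered scaling, background correction, dim probes, probe choice, outlier spots and the fold threshold. Probe positions are those of the array files (hg18), and exon or UTR annotation of that build was not used here.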

Additional observations from a re-analysis of the deposited data

Results flagged for a closer look

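The members, the genes eligible by list and the fixed markers were searched for ratios to control of opposite sign at the low and high dose. Such ratios, each beyond 2 spot-to-spot SDs and kept under all 7 scalings, were found for 4 genes. The nearest genes in pattern were not searched, and those nearest to NDST1 share its signs by how they were picked. How many of all genes show such signs was not counted. NDST1 had log2 ratios of -0.26 and 1.0, a difference of -1.26. GLCE had -0.57 and 0.86, a difference of -1.43. KLB had -0.68 and 0.39, a difference of -1.07, and its second probe went the same way (-0.72 and 0.47). PTPRC, an immune marker, had -1.03 and 0.41, a difference of -1.44, by 1 probe, while its other 4 probes were not well above background on any array. With 1 array per condition these differences were not tested.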

How the results depend on the processing

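No paired analysis was possible because a single array stood for each condition, and no replicate could be left out. The material was 1 sample per condition, the spot-to-spot SD leaves out biological spread, and dim genes such as SULF1 have no ratio. Scaling acted mostly on the high dose, where the median of all genes moved on the log2 scale by -0.25 when arrays were left unscaled, by -0.29 when set to their median and by -0.17 when set to the spike-in controls, and between doses by 0.31, 0.27 and 0.23.

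Members past 2-fold upward with the low dose numbered 2, and 1 at a 3-fold threshold and 3 (with SDC4) at 1.5-fold. Those lower numbered 0, and 1 (HS2ST1) at 1.5-fold. Of all 16659 genes with a ratio, 1512 were higher and 1078 lower at 1.5-fold, and 215 and 60 at 3-fold. At the high dose 1 member was higher, and 3 at 1.5-fold. The number was 2 (SULF2 and NDST1) under quantile normalization and with the percentile over detected probes or over all spots. All genes higher in these 3 settings numbered 780, 1177 and 1315. Members lower numbered 0, against 1 (HS2ST1) in unscaled, median-scaled and spike-in-scaled signals and at 1.5-fold. Of all 16771 genes with a ratio, 3120 were higher and 1643 lower at 1.5-fold, and 313 and 278 at 3-fold. Between doses 0 members were higher at the low dose, against 2 (SULF2 and SDC1) in unscaled, median-scaled and spike-in-scaled signals and at 1.5-fold. In the other direction 1 was lower, against 0 in unscaled and median-scaled signals and at 3-fold. Of all 16685 genes with a ratio, 1257 were higher and 2391 lower at 1.5-fold, and 315 and 141 at 3-fold. Nothing is read from these member counts.

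The log2 ratio of SULF2 at the low dose was 3.95 with normexp correction, whose offset compresses ratios. At the high dose it was 3.04 unscaled, 3.0 median-scaled, 3.12 spike-in-scaled and 2.99 after normexp, and between doses 1.30, 1.25 and 1.21 in these 3 scalings and 0.92 with the percentile over all spots. The median of the members at the high dose was -0.28, -0.32 and -0.21 under these 3 scalings and 0.13 without a filter on dim probes. Between doses it was 0.48, 0.44 and 0.40, then 0.10 with the percentile over all spots, 0.24 with normexp and 0.066 without the filter. Without the filter, SULF1, which otherwise has no ratio, also entered the median. Apart from the shift by scaling and this added gene, the cause was not tested. Over the other named genes, 1148 of 1565 values stayed within the spot noise, 417 moved and 0 of the called values changed sign.

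Counts over all genes moved more. At the high dose 1145 genes were higher, against 634 unscaled, 586 median-scaled, 750 spike-in-scaled, 382 after normexp, 732 with only probes above background on all arrays and 3242 without a filter, and genes lower there numbered 617, against 1071, 1181, 914, 420, 504 and 1049. At the low dose 564 were higher, against 253 with normexp, 370 with only probes above background on all arrays and 1250 without a filter, and 263 were lower, against 81, 166 and 949. Between doses 611 were higher and 661 lower, against 1002 and 286 unscaled, 916 and 312 median-scaled, 842 and 340 spike-in-scaled, 735 and 387 under quantile normalization, 400 and 151 with normexp, 491 and 391 with only probes above background on all arrays, and 938 and 2556 without a filter.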
